A study of Mus musculus with 23 samples.

Results

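The comparison described here is the difference between sorted macrophages and sorted monocytes in their response to a hydrogel implant at day 14. For each gene, the log2 change in monocytes from control to day 14 was subtracted from the log2 change in macrophages, and the difference is called the interaction. A positive interaction means that the change was higher in macrophages, and a negative one that it was higher in monocytes. The comparison uses 11 of the series' 23 libraries, chosen by their labels, and 16260 genes were tested in it.

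The mice were wildtype C57BL/6J and the labelled tissue was subcutaneous for every library, control monocytes included. Control macrophages (n = 2) and control monocytes (n = 3) came from mice with no implant. Day 14 macrophages (n = 3) and day 14 monocytes (n = 3) came from mice that had carried a poly(ethylene glycol) (PEG) hydrogel, a water-swollen synthetic polymer network, under the skin for 14 days. Per the series' design note, the replicates were biological, and both cell types were sorted as Cx3cr1-positive, with low Ly6C marking macrophages and high Ly6C monocytes. For age, sex and pooling of animals, the sources used here give no information. Liberase TM, an enzyme mixture used to free cells from tissue, was applied to the explanted tissue and hydrogels.

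Tissue macrophages are scavenging cells that clear debris, bind microbes through lectins and secrete complement, a set of plasma proteins that tag particles for uptake. Monocytes are made in bone marrow, circulate in blood, and can mature into macrophages after they enter inflamed tissue. In the foreign body response, both kinds of cell gather at an implanted material, where they release chemokines and proteases while fibroblasts lay down collagen.

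Library totals ran from 10898529 to 32994092 counts, so that 3 counts were worth 0.0654 to 0.208 CPM (counts scaled to library size by TMM factors). Rank correlations within groups were 0.933 to 0.969. The Ly6C gene Ly6c2 stood at 1229, 2406 and 1291 CPM in control monocytes and 2037, 1511 and 3586 CPM in day 14 monocytes, against 236 and 120.3 CPM in control macrophages and 51.8, 64.9 and 24.2 CPM in day 14 macrophages. Every monocyte library was above every macrophage library in this gene. Values of a group are listed in the order of replicates A, B and C throughout. The other sort gene, the fractalkine receptor Cx3cr1, was detected in all 11 libraries and is described with the genes that fell in monocytes. The macrophage receptor Mertk stood at 117 and 71.2 CPM in control macrophages and at 0.567, 0.584 and 0 CPM in control monocytes. In these bulk samples, fewer cells of a type and less RNA per cell cannot be told apart.

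Genes of other cell types were summed for each library. The 18 fibroblast genes summed to 232 to 282 CPM in control macrophages, 29.6 to 93.5 CPM in day 14 macrophages, 79.7 to 139.8 CPM in control monocytes and 705 to 1328 CPM in day 14 monocytes. The 18 neutrophil genes summed to 73.2 to 105 CPM in control macrophages, 156 to 342 CPM in day 14 macrophages, 2886 to 4438 CPM in control monocytes and 326 to 908 CPM in day 14 monocytes. The fibroblast list thus had its highest sums in day 14 monocytes, and the neutrophil list in control monocytes. The neutrophil list includes S100a8 and S100a9, which monocytes also carry and whose levels are given below. The 6 erythroid genes summed to 216 to 825 CPM in day 14 monocytes and to no more than 196 CPM in any other library. The 8 mast cell genes summed to 137 to 161 CPM in day 14 monocytes, where 6 of them were at 0, and to no more than 18.5 CPM in any other library. The 12 T cell genes summed to 7.01 to 7.31 CPM in control monocytes, 149 to 223 CPM in day 14 monocytes, 36.1 to 39.5 CPM in control macrophages and 105 to 148 CPM in day 14 macrophages. The part of these cells in the results was not tested.

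**Figure D1:**
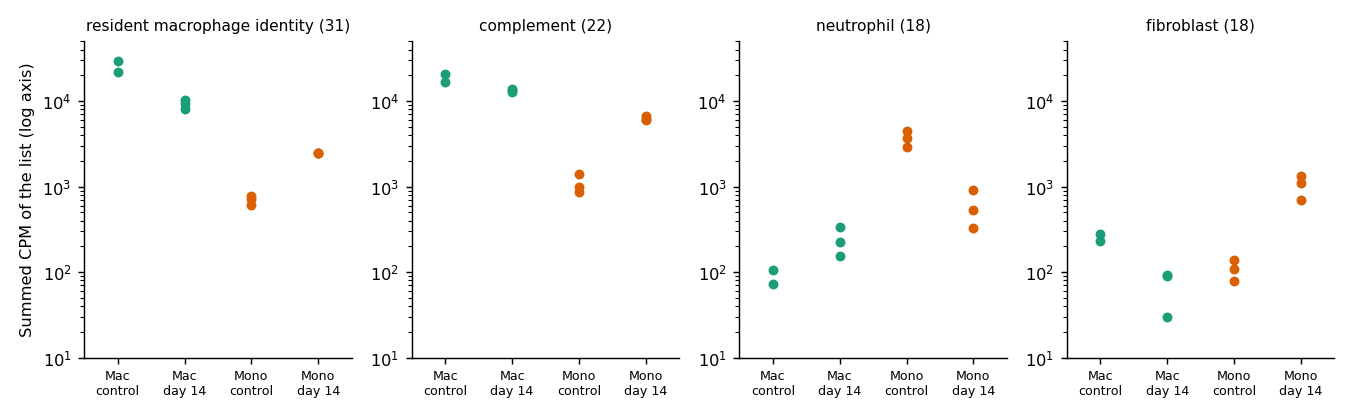
Summed CPM of 4 gene lists in every library on a log axis, with 1 point per library (2 control macrophage libraries, 3 in each other group) and the number of list members in each title. Day 14 monocytes stand above control monocytes in resident macrophage, complement and fibroblast genes, and below them in neutrophil genes.

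The interaction was called in 1227 genes (7.55% of those tested), with edgeR's quasi-likelihood test and a Benjamini-Hochberg adjusted p under 0.05. It was positive in 529 genes (3.25%) and negative in 698 (4.29%). The median interaction over all genes was -0.05 on the log2 scale, with a median standard error of 0.89. Monocytes had the larger change in 1010 of the 1227 genes and macrophages in 217. Over all genes, 3226 rose in monocytes (19.8%) and 2906 fell (17.9%), while 896 rose in macrophages (5.51%) and 439 fell (2.7%). The macrophage change had the larger median standard error, 0.65 against 0.58 in monocytes, with 2 control libraries behind it.

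By response, the largest class was genes that changed in monocytes and did not pass the test in macrophages, with 537 that rose and 395 that fell. The reverse class, changed in macrophages only, held 73 genes that rose and 33 that fell. In these classes the other cell type's change was under 1 on the log2 scale in 312, 323, 70 and 24 genes, respectively. Both changes were called with opposite signs in 40 genes, of which 17 rose in macrophages and fell in monocytes and 23 did the reverse. In 100 genes both cell types changed in the same direction by different amounts, 98 of them upward, and in 76 of the 98 the rise was larger in monocytes. Neither change was called in the other 49. Another 816 genes were called in both cell types in the same direction with no call in the interaction. A further 4244 genes were called in monocytes alone and 273 in macrophages alone without a call in the interaction, so these are not shown to differ between the cell types.

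The counts depended on single libraries, the 2 control macrophages most of all. Without control macrophage A the interaction was positive in 185 genes and negative in 388, and monocytes-only, macrophages-only, opposite and same-direction genes numbered 470, 38, 17 and 37. Without control macrophage B, 370 interactions were negative, and 52 macrophages-only, 13 opposite and 49 same-direction genes were left. Positive interactions numbered 337 without day 14 macrophage B, and negative ones 457 without control monocyte A and 434 without control monocyte C. Those 3 libraries also brought the monocytes-only class to 616, 621 and 571 genes. Opposite genes numbered 26 without day 14 macrophage A and 26 without C. With DESeq2 size factors in place of TMM, the median over all genes moved to -0.16, and 468 interactions were positive and 831 negative. Positive ones were 43.1% of the calls in the main fit, 55.4% in a fit of only the 11 libraries and 56.8% with no filter on low counts. DESeq2's own test called 960 positive and 1253 negative. The deviation from the group mean fell most with exon length in control macrophage B, day 14 macrophage C and control monocyte B. Their rank correlations with length were -0.231, -0.239 and -0.318, against -0.078 and -0.098 in day 14 monocytes A and C. With only 2 control macrophages, A has the mirror value of 0.231, so the trend cannot be assigned to B rather than A. A fit without these 3 libraries is given at the end.

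**Figure D2:**
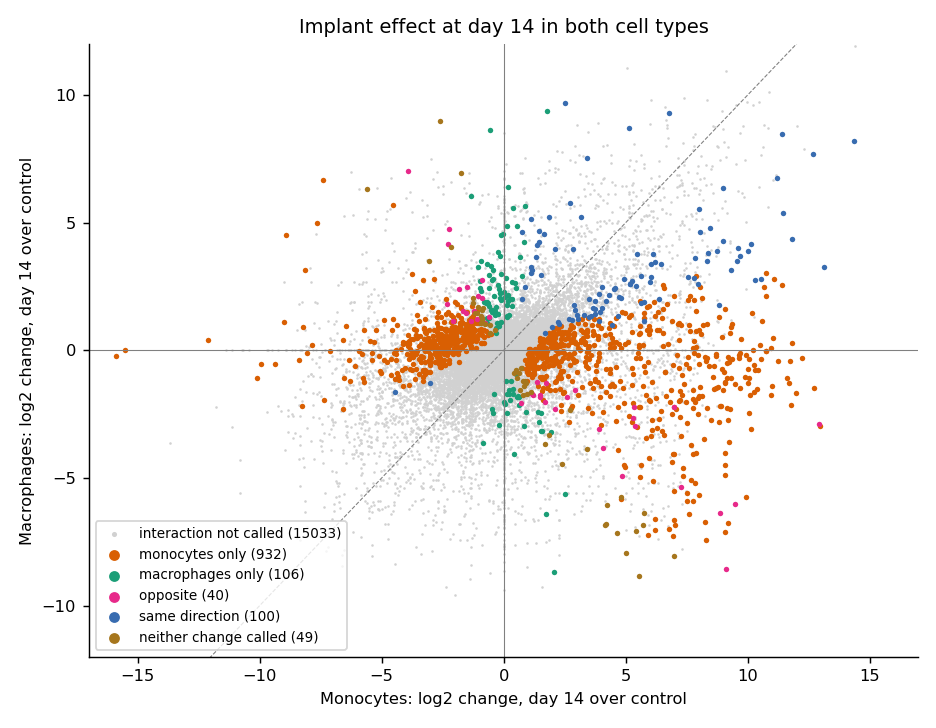
Fitted log2 change from control to day 14 in monocytes (horizontal) and macrophages (vertical) for all 16260 tested genes, coloured by response class with the number of genes in each. The 932 monocytes-only genes spread along the horizontal axis, the dashed line marks equal changes, and fitted values of the 172 called genes with 0 counts in a group depend on the prior count.

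In most genes with a called interaction the cell types started apart and ended closer. The interaction equals the day 14 difference between the cell types minus their control difference, so both share the control libraries, and the counts in this paragraph describe the genes and support no further result. Over all genes, control macrophages were higher than control monocytes in 1238 (7.61%) and lower in 796 (4.9%), while at day 14 macrophages were higher in 869 (5.34%) and lower in 654 (4.02%). Of the 1227 genes, 813 (66.3%) differed between the cell types in controls, against 12.5% of all tested genes. The absolute difference was smaller at day 14 in 895 of the 1227 (72.9%), against 49.9% of all genes. In 658 genes a control difference was called and no day 14 difference was, which is termed converging. In 241 genes a difference was called at day 14 and not in controls, termed diverging. The difference changed sign in 71 genes, narrowed in 84 and widened in 0, with 173 called at neither time. With 1 library left out, the sign changed in 27 (without day 14 macrophage B) to 63 genes (without control monocyte B), and 48 (without day 14 monocyte A) to 83 (without control monocyte B) narrowed. The 813 genes with a control difference became 455 without control macrophage A, 472 without control macrophage B and 537 without control monocyte C. Leaving out control macrophage A, control macrophage B or control monocyte C brought converging genes to 359, 367 and 419. Diverging genes numbered 61 without control macrophage A, 91 without day 14 macrophage B and 100 without day 14 monocyte C.

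The control levels of each class come from the same libraries that, through the interaction, placed the genes in it, so the following counts too are a description. Of the 537 genes that rose in monocytes only, 410 were already higher in control macrophages, 281 lay under 1 CPM in control monocytes, and in 404 no difference between the cell types was called at day 14. Their median levels were 14.3 CPM in control macrophages, 12.9 CPM in day 14 macrophages, 0.679 CPM in control monocytes and 15.2 CPM in day 14 monocytes. Of the 73 genes that rose in macrophages only, 65 had been higher in control monocytes. Among the opposite genes, 16 of the 17 that rose in macrophages were higher in control monocytes and 21 of the 23 that fell in macrophages were higher in control macrophages. Genes that fell in monocytes only divided more evenly, with 177 higher in control monocytes and 218 of the 395 not called in controls. Very low control levels make a fitted fold large and imprecise, and 347 of the 1227 genes lay under 1 CPM in control monocytes and 145 in control macrophages.

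**Figure D3:**
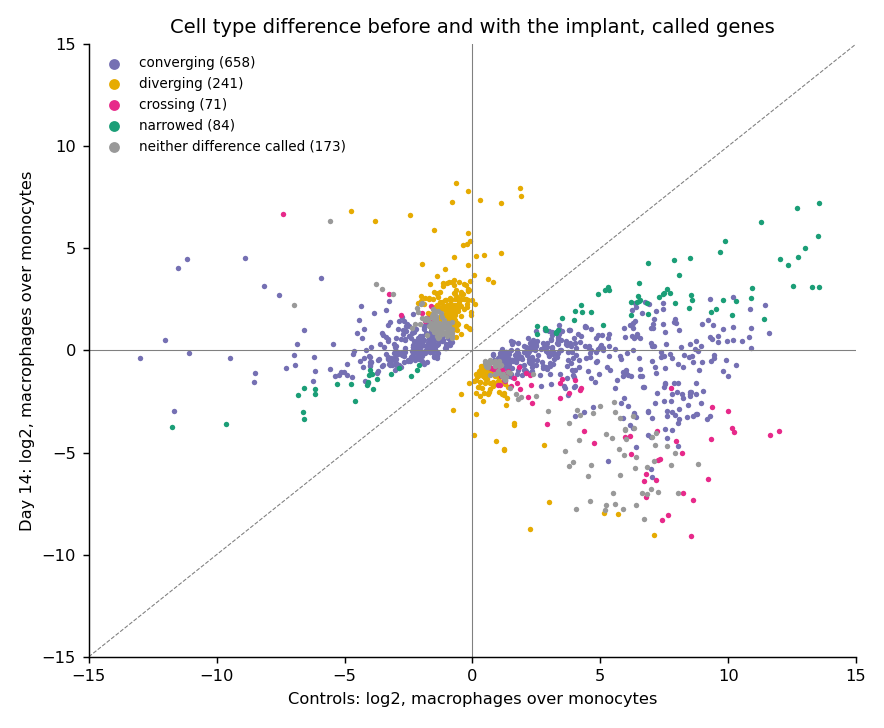
Fitted log2 difference between macrophages and monocytes in controls (horizontal) and at day 14 (vertical) for the 1227 genes called in the interaction, coloured by whether the difference was called in controls only (converging, 658), at day 14 only (diverging, 241), at both with opposite signs (crossing, 71), at both with the same sign and smaller at day 14 (narrowed, 84) or at neither (173). Points on the dashed line would have no interaction, and 895 of the 1227 genes have a smaller absolute difference at day 14 than in controls.

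The 73 genes that rose in macrophages only included several that monocytes and neutrophils carry in abundance. The calcium-binding alarmin S100a8 (chromosome 3, 90668978 to 90670035 on GRCm38) stood at 0.522 and 2.64 CPM in control macrophages, 82.9, 48.4 and 198 CPM in day 14 macrophages, 595, 804 and 411 CPM in control monocytes and 444, 49.9 and 217 CPM in day 14 monocytes. All day 14 macrophages were above both controls, while the monocyte groups overlapped. The interaction was 7.39 ± 1.15 (SE, log2 scale, adjusted p = 3.93e-04), made of 6.04 ± 0.98 in macrophages and -1.35 ± 0.65 in monocytes (adjusted p = 0.107). Haptoglobin, Hp, which binds free hemoglobin, measured 8.23 and 10.5 CPM in control macrophages, 355, 154 and 309 CPM in day 14 macrophages, 580.2, 1084 and 1031 CPM in control monocytes and 1326, 799 and 846 CPM in day 14 monocytes. It rose by 4.86 ± 0.50 in macrophages, and its change in monocytes was 0.14 (95% interval -0.60 to 0.88). The interaction of Hp was 4.72 ± 0.58 (adjusted p = 3.34e-05), and monocytes were still higher at day 14 (-1.86, adjusted p = 0.00470). Met, the receptor for hepatocyte growth factor, measured 0.131 and 0.749 CPM in control and 35.7, 19.99 and 18.8 CPM in day 14 macrophages against 30.2, 20.3 and 62.8 CPM in control and 83.6, 55.6 and 69.04 CPM in day 14 monocytes. Its interaction was 4.77 ± 0.87 (adjusted p = 0.00174) and the macrophage groups did not overlap.

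Hsd11b1, which regenerates active glucocorticoid inside cells, rose from 0.131 and 0.929 CPM to 16.99, 3.96 and 20.9 CPM in macrophages, where libraries A and C, but not B, lay within the range of the monocytes (11.1, 19.8 and 13.2 CPM in controls and 25.1, 11.1 and 6.88 CPM at day 14). Its interaction was 4.60 ± 0.98 (adjusted p = 0.00631). Nr4a1, an early response transcription factor needed by nonclassical monocytes, was at 52.9 and 24.2 CPM in control macrophages and 429, 495 and 209 CPM at day 14, beside 868, 318 and 743 CPM and 336, 554 and 472 CPM in monocytes. All day 14 macrophages exceeded their controls, and the interaction was 3.80 ± 0.65 (adjusted p = 0.00104). The neutrophil collagenase Mmp8 and the secreted protein Wfdc21 also rose in macrophages only, with interactions of 4.63 ± 1.06 and 6.19 ± 1.61 (adjusted p = 0.0104 and 0.0225). Both lost the call when a control macrophage was left out, Mmp8 at adjusted p = 0.067 without A and 0.052 without B, and Wfdc21 at 0.069 and 0.12. Of the 18 neutrophil genes, 3 rose in macrophages (S100a8, S100a9 and Mmp8), 1 of them without control macrophage A, while Ngp, a granule protein, was at 0.588 and 0.2398 CPM in control macrophages and 0.0837, 0.582 and 0.493 CPM at day 14. Camp, another granule protein, was at 0.261 and 0.0599 and 0, 0.0388 and 0.314 CPM.

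The 33 genes that fell in macrophages only included lectin and complement genes of resident tissue macrophages. The lectin gene Cd209f fell from 964 and 1483 CPM in control macrophages to 32.98, 13.8 and 27.9 CPM at day 14, and stood at 0.153, 0.239 and 0.142 CPM in control monocytes and 0.554, 0.593 and 1.88 CPM in day 14 monocytes. Its interaction was -8.13 ± 1.63 (adjusted p = 0.00400), of which -5.62 was the fall in macrophages and 2.51 a monocyte change that did not pass (adjusted p = 0.108). Cd209g, its neighbour on chromosome 8, fell from 369.7 and 517 CPM to 7.32, 1.67 and 6.55 CPM in macrophages, with an interaction of -8.16 ± 1.48 (adjusted p = 0.00166). Genes of this family share sequence, and no source used here says how reads that match more than 1 gene were counted, so the split among them is uncertain. Ficolin A, Fcna, a lectin that starts the complement cascade, fell from 1112 and 1799 CPM to 120.3, 82.8 and 56.6 CPM in macrophages and stood at 1.66, 1.01 and 2.01 CPM and 3.81, 2.64 and 0.0481 CPM in control and day 14 monocytes. Its interaction of -4.51 ± 1.04 (adjusted p = 0.0107) had an adjusted p of 0.053 without control macrophage B.

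Complement C4b fell from 1096 and 546 CPM to 176, 77.5 and 22.3 CPM in macrophages, with 4.27, 0.743 and 8.92 CPM in control monocytes and 26.5, 9.92 and 3.75 CPM in day 14 monocytes. The near-identical copy C4a followed it, with interactions of -5.15 ± 1.10 for C4a and -4.68 ± 1.17 for C4b (adjusted p = 0.00619 and 0.0177), so reads of these 2 genes may be divided between them. The call of C4b was lost without control macrophage A (adjusted p = 0.099), control monocyte A (0.052) or day 14 monocyte A (0.062). Slfn4, an interferon-inducible gene of myeloid cells, stood at 986 and 248 CPM in control macrophages and 64.5, 129 and 12.7 CPM at day 14, beside 72.1, 57.5 and 90.3 CPM and 149, 150.5 and 346 CPM in monocytes. The control macrophages of Slfn4 lay far apart, and its adjusted p went from 0.0136 to 0.14 without control macrophage A. Ddx60, an interferon-induced helicase, fell from 236 and 138 CPM to 52.1, 44.8 and 9.5998 CPM in macrophages (interaction -3.30 ± 0.71, adjusted p = 0.00669, 0.061 without control macrophage A).

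The monocytes-only rises contained a chemokine block on chromosome 11, of which control monocytes nearly lacked Ccl7 and Ccl12 and held some Ccl2. Ccl7 (chromosome 11, 82045712 to 82047525), which attracts monocytes through Ccr2, stood at 0.196, 0.345 and 0.0473 CPM in control monocytes and 301, 181 and 545 CPM at day 14, while macrophages had 373 and 382 CPM in controls and 329.7, 338 and 448 CPM at day 14. Day 14 monocytes lay on both sides of the macrophage values, whose groups overlapped. The interaction was -10.78 ± 0.92 (adjusted p = 2.46e-07), with a macrophage change of -0.02 (95% interval -1.21 to 1.17). Its neighbour Ccl12 (chromosome 11, 82101845 to 82103400) measured 0, 0.239 and 0.0473 CPM in control and 82.4, 26.2 and 197 CPM in day 14 monocytes, against 96.7 and 85.5 CPM and 75.7, 59.3 and 83.6 CPM in macrophages (interaction -10.39 ± 1.24, adjusted p = 2.30e-05). Ccl2, the main ligand of Ccr2, measured 11.2, 16.4 and 10.4 CPM and 653, 345 and 997 CPM in monocytes and 188 and 225 CPM and 194, 237 and 295 CPM in macrophages. Ccl2 was higher in control macrophages than in control monocytes (4.03, adjusted p = 1.87e-05), and its interaction was -5.49 ± 0.70 (adjusted p = 4.54e-05). The chemokine receptor Ccr1 went from 29.5, 20.1 and 33.2 CPM to 1347, 1497 and 1029 CPM in monocytes and measured 321 and 298 CPM and 578, 515 and 351 CPM in macrophages. Its interaction was -4.91 ± 0.49 (adjusted p = 2.25e-06), and the groups of monocytes did not overlap.

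Complement component C1q, which opens the classical pathway and is made by macrophages, rose in monocytes through all 3 of its chain genes. C1qa was at 1.37, 1.27 and 1.09 CPM in control monocytes and 173, 285 and 276 CPM at day 14, against 2122 and 2614 CPM in control and 1462, 1407 and 1479.6 CPM in day 14 macrophages. C1qb measured 8.04, 10.6 and 9.56 CPM and 880.4, 1298 and 1283 CPM in monocytes and 5862 and 8109 CPM and 4084, 4351 and 5482 CPM in macrophages. C1qc measured 2.94, 3.77 and 3.34 CPM and 359.8, 558 and 538 CPM in monocytes and 3373 and 5093 CPM and 2401, 2363 and 3006 CPM in macrophages. The chains kept the same order, C1qb above C1qc above C1qa, in every group. Their interactions were -8.32 ± 0.50, -7.53 ± 0.52 and -7.89 ± 0.54 (adjusted p = 3.61e-09, 1.03e-08 and 1.03e-08). At day 14 macrophages still had more of each, by 2.57, 2.01 and 2.42 on the log2 scale. For the anaphylatoxin receptor C3ar1 no day 14 difference was called, with 4.75, 2.73 and 7.101 CPM and 942, 975 and 1017 CPM in monocytes and 779.8 and 543 CPM and 1291, 1176 and 904 CPM in macrophages (interaction -6.88 ± 0.43, adjusted p = 3.61e-09, day 14 difference 0.20, 95% interval -0.36 to 0.76).

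Several resident macrophage genes joined this class. The endocytic adaptor Dab2 stood at 0.676, 0.159 and 0.237 CPM in control monocytes, 397, 477 and 275 CPM in day 14 monocytes, 1238 and 1021 CPM in control macrophages and 994, 709 and 336 CPM in day 14 macrophages. Its interaction was -10.75 ± 0.71 (adjusted p = 8.22e-09), and the macrophage change was -0.73 (95% interval -1.66 to 0.19). Platelet factor 4, Pf4, a chemokine that macrophages also make, measured 0.218, 0.664 and 0.379 CPM and 379, 215 and 429.7 CPM in monocytes against 815 and 1452 CPM and 772, 830.4 and 1410.1 CPM in macrophages (interaction -9.84 ± 0.82, adjusted p = 1.80e-07). The eosinophil attractant Ccl24 overtook the macrophages, going from 0.414, 1.14 and 1.16 CPM to 349, 353 and 339 CPM in monocytes beside 161 and 235 CPM and 74.1, 57.1 and 155 CPM (interaction -9.63 ± 0.94, adjusted p = 1.85e-06, day 14 difference -1.86, adjusted p = 0.0439). Mertk, a receptor for dying cells, reached 21.3, 17.7 and 23.8 CPM in day 14 monocytes, with 67.04, 73.2 and 44.5 CPM in day 14 macrophages (interaction -6.36 ± 0.84, adjusted p = 6.60e-05). The cholesterol exporter Abca1 measured 5.41, 3.82 and 6.58 CPM and 229, 205 and 181 CPM in monocytes and 328 and 99.5 CPM and 446, 372 and 250.3 CPM in macrophages (interaction -4.54 ± 0.66, adjusted p = 2.03e-04).

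Matrix genes of fibroblasts were among the most negative interactions. Collagen Col3a1 stood at 0.0436, 0.0531 and 0.07101 CPM in control monocytes and 293, 231 and 126 CPM at day 14, against 74.3 and 63.9 CPM in control macrophages and 23.3, 20.6 and 3.01 CPM in day 14 macrophages (interaction -13.94 ± 1.93, adjusted p = 1.20e-04). The collagen-binding protein Sparc measured 0.109, 0.0531 and 0.876 CPM and 348, 263 and 256 CPM in monocytes and 23.6 and 82.3 CPM and 20.8, 25.5 and 10.6 CPM in macrophages (interaction -11.16 ± 1.25, adjusted p = 1.10e-05). Serping1, the inhibitor of complement C1, followed with 0.0218, 0.0531 and 0.0237 CPM and 120.2, 73.9 and 34.7 CPM in monocytes and 3.53 and 14.9 CPM and 5.61, 2.37 and 2.56 CPM in macrophages (interaction -12.40 ± 1.74, adjusted p = 1.35e-04). Decorin, Dcn, had 3 counts over the control monocytes and 267, 215 and 118 CPM at day 14, a ratio of 8027 with a counting interval of 2746 to 38929. Ccdc80, a secreted matrix protein, had 0 counts in control monocytes and 14.4, 21.9 and 17.3 CPM at day 14, at least 759-fold higher. In all, 13 of the 18 fibroblast genes rose in monocytes only, against 537 of all 16260 genes, and Col1a2 was in the opposite class, while Col1a1, Col5a2, Col6a1, Col6a2, Lum, Pdgfra and Dpt, 7 genes, had 0 counts in control monocytes. The genes of the fibroblast list make up the fibroblast sums given above, so their rise and that of the sums are 1 observation. Whether the matrix genes came from the sorted monocytes was not tested.

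Genes that fell in monocytes only included the fractalkine receptor of the sort itself. Cx3cr1 stood at 556, 437 and 512 CPM in control monocytes and 81.3, 105 and 54.7 CPM at day 14, with 136 and 57.6 CPM and 61.1, 52.4 and 84.9 CPM in macrophages. Its interaction was 2.09 ± 0.55 (adjusted p = 0.0250), and the call was lost without control macrophage B (adjusted p = 0.12) or day 14 monocyte C (0.052). Ace, angiotensin-converting enzyme and a gene of patrolling nonclassical monocytes, fell from 164, 76.01 and 281 CPM to 5.75, 3.83 and 2.21 CPM in monocytes and lay at 1.31 and 3.39 CPM and 2.39, 4.27 and 2.56 CPM in macrophages. All groups other than control monocytes were under 6 CPM for Ace, and its interaction was 5.83 ± 1.04 (adjusted p = 0.00149). The integrin Itgb7 fell from 734, 561 and 667 CPM to 58.8, 39.8 and 62.02 CPM in monocytes beside 49.05 and 63.3 CPM and 142, 95.6 and 54.95 CPM in macrophages (interaction 4.40 ± 0.90, adjusted p = 0.00450). Lpcat4, an enzyme of phospholipid remodelling, fell from 62.97, 84.8 and 60.7 CPM to 11.1, 2.59 and 2.98 CPM in monocytes, with 1.96 and 4.32 CPM and 16.4, 10.9 and 19.96 CPM in macrophages (interaction 5.96 ± 1.00, adjusted p = 8.56e-04). The macrophage libraries of Lpcat4 did not overlap, although that change did not pass (2.31, adjusted p = 0.0556).

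Neutrophil granule genes also fell in monocytes. Ngp stood at 1152, 1394 and 779.8 CPM in control monocytes, and its counts went from 138280 over the 3 control libraries to 1 over the day 14 libraries. Camp stood at 324, 413 and 219.7 CPM in control monocytes and had 0 counts at day 14, at least 5655-fold lower. Lactoferrin, Ltf, stood at 447, 343 and 348 CPM in controls and 2.91, 0 and 1.39 CPM at day 14, and lipocalin, Lcn2, which binds bacterial iron carriers, at 134, 170.1 and 94.6 CPM and 31.4, 2.91 and 6.59 CPM. All 4 were under 3 CPM in every macrophage library. Of the 18 neutrophil genes, 8 fell in monocytes only, against 395 of all 16260 genes. The summed level of the list, given above, is made of these same genes and is no separate result. The source of these genes was not tested. The neutrophil surface marker Ly6g averaged 0.9996 CPM in control monocytes and 0.0391 CPM at day 14. Interactions were 7.98 ± 2.19 for Ltf and 6.04 ± 1.28 for Lcn2 (adjusted p = 0.0297 and 0.00613), and Ltf lost the call without control macrophage A (adjusted p = 0.062), control macrophage B (0.076), day 14 macrophage B (0.11) or day 14 macrophage C (0.14). Camp lost it without day 14 macrophage C (0.14).

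Of the 17 genes that rose in macrophages and fell in monocytes, 16 drew together, and in 16 no difference between the cell types was called at day 14. In 1 gene a difference was called at day 14 and not in controls. S100a9, the partner of S100a8 in the alarmin calprotectin, stood at 0.327 and 2.31 CPM in control macrophages and 22.6, 18.05 and 74.6 CPM at day 14, against 516, 709 and 351 CPM in control monocytes and 165, 44.5 and 126 CPM at day 14. The groups overlapped in neither cell type, and the interaction was 6.99 ± 1.14 (adjusted p = 6.63e-04), made of 4.76 ± 0.92 and -2.23 ± 0.67. Glutathione reductase, Gsr, which keeps glutathione in its reduced form, went from 1.18 and 6.17 CPM to 38.4, 65.6 and 97.3 CPM in macrophages and from 337, 668 and 753 CPM to 129, 113 and 118 CPM in monocytes. Its interaction was 6.44 ± 0.95 (adjusted p = 2.25e-04). The sialomucin Spn, CD43, a marker of nonclassical monocytes, went from 3.53 and 2.85 CPM to 10.9, 11.1 and 11.9 CPM in macrophages and from 54.9, 50.1 and 63.9 CPM to 17.9, 8.25 and 7.74 CPM in monocytes, so that the day 14 difference was 0.00 (95% interval -0.82 to 0.83). Its interaction was 4.15 ± 0.64 (adjusted p = 3.66e-04).

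Treml4, a receptor of the same monocyte subset, measured 4.18 and 4.65 CPM and 25.5, 24.6 and 23.3 CPM in control and day 14 macrophages and 122, 176 and 133 CPM and 66.6, 43.8 and 42.3 CPM in monocytes. Abi3, part of an actin-remodelling complex, measured 3.92 and 3.45 CPM and 23.3, 26.6 and 24.3 CPM in macrophages and 54.2, 54.2 and 67.1 CPM and 30.04, 28.2 and 36.01 CPM in monocytes. Dock5, an activator of the GTPase Rac, measured 0.588 and 1.41 CPM and 5.73, 4.77 and 5.79 CPM in macrophages and 20.1, 17.4 and 55.8 CPM and 8.999, 11.1 and 6.15 CPM in monocytes. All 3 genes rose in every day 14 macrophage library above both controls and fell in monocytes, with interactions of 3.97 ± 0.56, 3.65 ± 0.44 and 4.22 ± 0.85 (adjusted p = 1.48e-04, 2.69e-05 and 0.00409). The pentose phosphate enzyme Tkt showed a smaller crossing of changes, from 108 and 106 CPM to 338, 223 and 243 CPM in macrophages and from 382, 318 and 345 CPM to 236, 245 and 212 CPM in monocytes (interaction 1.92 ± 0.34, adjusted p = 0.00119).

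The 23 genes that fell in macrophages and rose in monocytes held scavenger receptors of resident macrophages. Stab1, which takes up modified lipoproteins and matrix fragments, went from 928 and 599 CPM to 203, 177 and 107 CPM in macrophages and from 1.57, 1.17 and 0.189 CPM to 119, 115 and 136 CPM in monocytes. No day 14 difference was called (0.40 , 95% interval -0.46 to 1.26), and the interaction was -9.20 ± 0.70 (adjusted p = 4.25e-08). The folate receptor Folr2 (chromosome 7, 101839988 to 101857194) went from 1714 and 2909.5 CPM to 490.2, 425 and 590.3 CPM in macrophages and from 0.959, 0.425 and 0.2604 CPM to 12.3, 35.1 and 20.6 CPM in monocytes, so macrophages kept the higher level (day 14 difference 4.47, adjusted p = 6.19e-05). Its interaction was -7.55 ± 0.76 (adjusted p = 2.87e-06). The mannose receptor Mrc1 went from 1601 and 1014 CPM to 655, 466 and 216 CPM in macrophages and from 19.1, 9.11 and 6.72 CPM to 76.9, 120.1 and 66.6 CPM in monocytes (interaction -4.47 ± 0.66, adjusted p = 2.49e-04), and its fall in macrophages was close to the threshold (adjusted p = 0.0496). Retnla, a secreted product of alternatively activated macrophages, fell from 4731 and 8918 CPM to 519, 314 and 628 CPM in macrophages, while monocytes measured 0.436, 0.6903 and 0.639 CPM in controls and 16.3, 13.3 and 0.625 CPM at day 14. Day 14 monocyte C lay within the control range for Retnla, and its interaction was -7.89 ± 1.35 (adjusted p = 0.00102).

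Serpinf1, a secreted antiangiogenic factor, went from 9.99 and 19.6 CPM to 0.502, 2.37 and 2.87 CPM in macrophages and from 0.676, 0.7699 and 0.686 CPM to 44.5, 28.96 and 15.8 CPM in monocytes, so that the order of the cell types turned over (interaction -8.33 ± 1.06, adjusted p = 4.54e-05). Fibroblasts also make Serpinf1, and its monocyte levels moved with the fibroblast sums. The elastase-like Cela1 went from 41.1 and 71.7 CPM to 12.1, 13.3 and 21.9 CPM in macrophages and from 1.05, 0.504 and 0.734 CPM to 4.36, 6.96 and 2.84 CPM in monocytes. Cystm1, a small membrane protein, went from 14.8 and 20.4 CPM to 1.76, 0.505 and 4.04 CPM in macrophages and from 0.153, 0.584 and 0.07101 CPM to 4.01, 6.85 and 1.44 CPM in monocytes. Their interactions were -4.46 ± 0.61 and -6.99 ± 1.22 (adjusted p = 9.58e-05 and 0.00122).

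**Figure D4:**
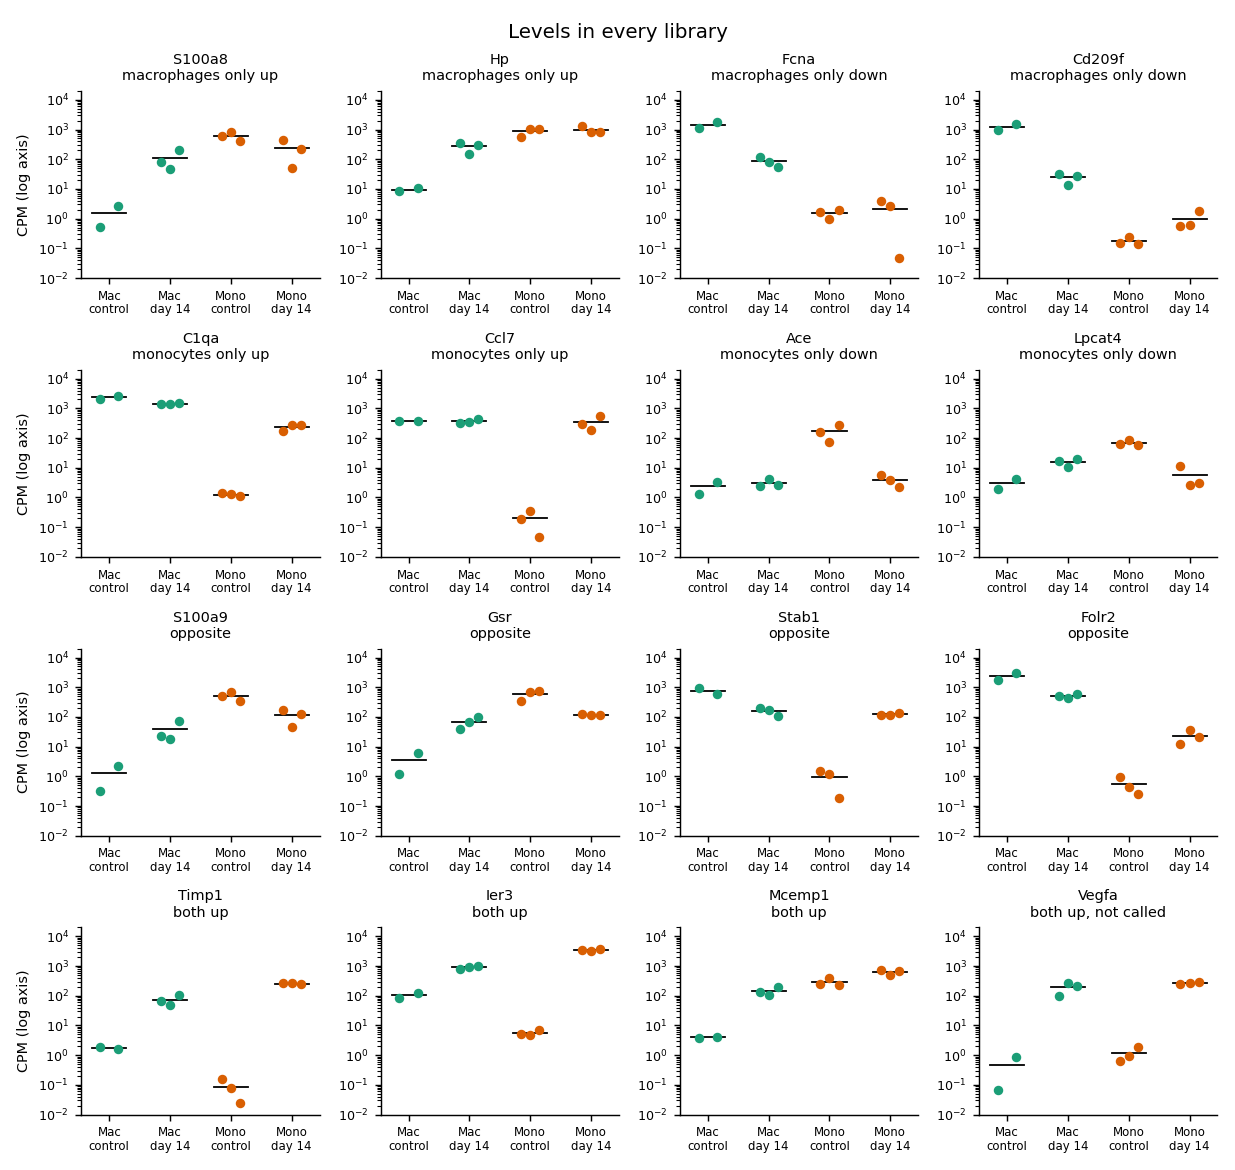
CPM of 16 named genes in every library on a log axis, with macrophages in green, monocytes in orange, 1 point per library and a line at the group mean, each titled with its response class. S100a8, Hp, S100a9 and Gsr climb in macrophages toward the monocyte level, whereas C1qa, Ccl7, Stab1 and Folr2 climb in monocytes toward the macrophage level. Vegfa, with no call in the interaction, climbs in both.

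Among genes that rose in both cell types, the larger rise was in monocytes in 76 of 98. Ier3, a stress-induced regulator of cell death, went from 81.7 and 126 CPM to 786, 920.2 and 1042 CPM in macrophages and from 5.297, 4.67 and 7.01 CPM to 3594, 3286 and 3822 CPM in monocytes. Monocytes began below macrophages and ended above them, with an interaction of -6.16 ± 0.43 (adjusted p = 1.03e-08). The metalloprotease inhibitor Timp1 went from 1.83 and 1.68 CPM to 64.3, 47.5 and 108 CPM in macrophages and from 0.153, 0.0796 and 0.0237 CPM to 267, 267 and 243 CPM in monocytes (interaction -6.07 ± 0.80, adjusted p = 6.70e-05). The neutrophil attractant Cxcl1 went from 2.87 and 14.1 CPM to 112, 141 and 211 CPM in macrophages and from 0.218, 0 and 0.0237 CPM to 103, 63.5 and 140.4 CPM in monocytes (interaction -5.97 ± 1.14, adjusted p = 0.00268). No day 14 difference was called for Cxcl1 ( 0.60, 95% interval -0.75 to 1.94). Its relative Cxcl2 went from 79.5 and 127 CPM to 631, 834 and 718 CPM in macrophages and from 6.63, 9.77 and 12.6 CPM to 2083, 1636 and 2814 CPM in monocytes (interaction -4.99 ± 0.55, adjusted p = 7.75e-06).

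The matrix protein osteopontin, Spp1, was the most abundant gene of this class and went from 322 and 201 CPM to 39133, 25805 and 97424 CPM in macrophages and from 4.49, 12.6 and 5.94 CPM to 68044, 31790.4 and 50571 CPM in monocytes. Its interaction was -4.98 ± 0.85 (adjusted p = 0.00102), and no day 14 difference was called (0.11, 95% interval -1.04 to 1.26). The lysosomal protease Ctsl went from 840.2 and 1166 CPM to 3178, 2842 and 5155 CPM in macrophages and from 21.8, 35.97 and 29.8 CPM to 1781, 1407 and 1581 CPM in monocytes (interaction -3.87 ± 0.45, adjusted p = 1.57e-05). Ifitm1, an interferon-induced membrane protein, diverged, since no difference was called in controls, at 3.13 and 5.12 CPM in macrophages and 1.46, 1.83 and 2.06 CPM in monocytes, while day 14 levels were 45.6, 38.4 and 56.03 CPM in macrophages and 1883, 565 and 1634 CPM in monocytes (interaction -6.09 ± 0.94, adjusted p = 3.85e-04). In 22 genes the rise was larger in macrophages. Mcemp1, a membrane protein of monocytes and mast cells, was one, going from 3.92 and 4.23 CPM to 132, 104 and 194 CPM in macrophages and from 255, 397 and 224 CPM to 728, 503 and 664 CPM in monocytes (interaction 4.02 ± 0.63, adjusted p = 4.51e-04). Coagulation factor F10 was another, going from 9.601 and 10.999 CPM to 428, 339 and 380.3 CPM in macrophages and from 58.98, 108 and 118 CPM to 961, 856 and 771 CPM in monocytes (interaction 2.03 ± 0.35, adjusted p = 0.00114). Of the 2 genes that fell in both, Slc46a3, a lysosomal transporter, went from 70.995 and 61.3 CPM to 17.95, 26.7 and 18.98 CPM in macrophages and from 157, 195 and 141 CPM to 6.85, 8.79 and 6.88 CPM in monocytes (interaction 2.81 ± 0.65, adjusted p = 0.0105).

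Promoter sequences of the mouse, 250 bases before to 50 bases after each RefSeq transcription start (build GRCm38.p6), were searched on both strands for 6 short motifs. A promoter was found for 11047 of 16259 gene symbols. The motifs were TGANTCA, bound by the early response factor AP-1, ACGTG, the core of the hypoxia element, GAAANNGAA, found in interferon elements, GGGANTTCC (NF-kB), TGACGTCA (cyclic AMP element) and CACGTGAC (CLEAR element of lysosomal genes), which holds the hypoxia core. AP-1 motifs stood in 5.63% of the promoters of all tested genes. They stood in 7 of 32 promoters (21.9%) of genes that fell in macrophages and rose in monocytes. The reverse class had 3 of 19 (15.8%). Genes that rose in both by different amounts had 14 of 83 (16.9%). Genes called in both in the same direction without a called interaction had 78 of 829 (9.41%). Genes that rose in monocytes only had 48 of 492 (9.76%) and those that fell in monocytes only 18 of 417 (4.32%). Genes that fell in macrophages only had 4 of 22 (18.2%) and those that rose in macrophages only 4 of 69 (5.8%). The hypoxia core stood in 24.6% of all promoters in 30 of 83 (36.1%) of genes that rose in both by different amounts, in 124 of 492 (25.2%) of genes that rose in monocytes only and in 4 of 32 (12.5%) of genes that fell in macrophages and rose in monocytes, the class of Serpinf1. Interferon motifs stood in 7.65% of all promoters and in 4 of 22 (18.2%) of genes that fell in macrophages only. Genes with neither change called had 8 of 48 (16.7%). The other 3 motifs stood in 2.24% (NF-kB), 2.86% (cyclic AMP) and 3.87% (CLEAR) of all promoters. They stood in 0 of those of several smaller classes, among them both opposite classes. The opposite classes had 32 and 19 promoters, too few for a 0 to show that motifs this rare are absent. The NF-kB pattern matched sites of 9 letters only, so longer forms were not counted. Start sites of 1 gene can overlap and are counted each, no test was made, and a match is not evidence of binding. The following promoters are shown because their genes moved in opposite directions (Folr2, Serpinf1) or rose in both cell types (Timp1, Ier3, Cxcl1), with AP-1 or hypoxia motifs in capitals. They were chosen after their values and matches were seen.
Folr2, start site 2 of 2, chr7:101845282-101845581, minus strand, AP-1 at position -74 from the start: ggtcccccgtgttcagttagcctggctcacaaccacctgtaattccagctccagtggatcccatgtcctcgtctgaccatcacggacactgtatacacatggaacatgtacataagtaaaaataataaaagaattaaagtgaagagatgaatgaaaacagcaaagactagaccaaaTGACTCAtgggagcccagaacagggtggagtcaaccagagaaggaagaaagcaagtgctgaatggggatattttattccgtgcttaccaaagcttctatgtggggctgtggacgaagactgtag
Serpinf1, chr11:75422574-75422873, minus strand, hypoxia core at -93: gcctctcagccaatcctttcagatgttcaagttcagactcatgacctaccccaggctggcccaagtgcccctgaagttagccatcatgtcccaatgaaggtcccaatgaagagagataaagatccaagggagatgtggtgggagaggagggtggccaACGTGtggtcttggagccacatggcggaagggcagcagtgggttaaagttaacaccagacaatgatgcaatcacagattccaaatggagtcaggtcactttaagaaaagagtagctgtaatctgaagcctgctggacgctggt
Timp1, chrX:20869916-20870215, plus strand, hypoxia core at -82: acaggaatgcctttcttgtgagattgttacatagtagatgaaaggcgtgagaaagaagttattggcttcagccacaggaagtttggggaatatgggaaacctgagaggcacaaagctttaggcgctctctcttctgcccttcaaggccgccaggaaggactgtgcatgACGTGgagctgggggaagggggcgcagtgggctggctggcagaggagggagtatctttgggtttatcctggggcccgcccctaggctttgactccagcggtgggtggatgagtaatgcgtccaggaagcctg
Ier3, chr17:35821463-35821762, plus strand, hypoxia core at -202: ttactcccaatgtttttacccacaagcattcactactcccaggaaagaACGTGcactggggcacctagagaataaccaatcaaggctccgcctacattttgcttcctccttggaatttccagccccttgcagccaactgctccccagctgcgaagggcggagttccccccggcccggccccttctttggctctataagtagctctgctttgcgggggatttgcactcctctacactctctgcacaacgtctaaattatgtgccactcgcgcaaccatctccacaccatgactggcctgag
Cxcl1, chr5:90890995-90891294, plus strand, hypoxia core on the other strand at -196: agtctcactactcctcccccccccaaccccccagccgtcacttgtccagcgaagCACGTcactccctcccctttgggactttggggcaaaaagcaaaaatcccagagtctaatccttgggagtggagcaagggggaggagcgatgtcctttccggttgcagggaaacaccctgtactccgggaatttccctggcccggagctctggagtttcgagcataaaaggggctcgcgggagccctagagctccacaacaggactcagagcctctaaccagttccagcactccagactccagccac

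The 816 genes that changed in both cell types in the same direction without a call in the interaction comprised 587 that rose and 229 that fell. A missing call does not show equal changes, and in only 91 of them did the 95% interval of the interaction lie within 1 on the log2 scale of 0. Without control macrophage A there were 288 such genes and without control macrophage B 507. The vessel growth factor Vegfa went from 0.0653 and 0.899 CPM to 99.8, 271 and 216 CPM in macrophages and from 0.654, 0.929 and 1.87 CPM to 244, 264 and 295 CPM in monocytes, with an interaction of 0.60 (95% interval -1.37 to 2.57). The adenosine-producing ectonucleotidase Nt5e went from 0.0653 and 0.1798 CPM to 136, 73.8 and 73.2 CPM in macrophages and from 0.0654, 0.0265 and 0.805 CPM to 181, 187 and 81.5 CPM in monocytes (interaction 0.42, 95% interval -2.34 to 3.18). Acod1, which makes itaconate, went from 0.588 and 0.2697 CPM to 117, 140.1 and 57.1 CPM in macrophages and from 0.915, 1.19 and 0 CPM to 247, 133 and 518 CPM in monocytes (interaction -0.71, 95% interval -3.15 to 1.74). These 3 genes were below 2 CPM in every control library, and no day 14 difference between the cell types was called. Inhba, a subunit of activin, rose in both as well, from 0 and 0.4196 CPM to 52.02, 54.3 and 11.7 CPM in macrophages and from 2.899, 0.531 and 0.592 CPM to 347, 326 and 351 CPM in monocytes. Day 14 levels of Inhba differed (adjusted p = 0.0223), whereas its interaction was -0.75 with an interval of -3.73 to 2.22. Shared falls included the sterol hydroxylase Cyp27a1, from 336 and 351 CPM to 43.9, 47.6 and 19.7 CPM in macrophages and from 353, 269 and 243 CPM to 11.6, 25.1 and 11.3 CPM in monocytes (interaction 0.96, 95% interval -0.47 to 2.39).

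Gene lists written from general knowledge showed which roles the classes held. For each, members called are given against 3.25% of all genes called with a positive and 4.29% with a negative interaction, and the median against -0.05. Rises are to be read against 19.8% of all genes in monocytes and 5.51% in macrophages, and falls against 17.9% and 2.7%. More rises in monocytes than in macrophages are thus general to the tested genes. Of 31 resident macrophage genes, 18 had a called interaction, all negative, with a median of -4.40. In macrophages 18 fell and 1 rose, and in monocytes 13 rose and 1 fell, so the list held both kinds of change. The falls in macrophages numbered 11 without control macrophage A and 10 without B. In control macrophages 29 of the 31 were higher than in control monocytes, and the list's sum went from 21817 to 29595 CPM down to 8080.2 to 10442 CPM in macrophages and from 611 to 779 CPM up to 2450.2 to 2465 CPM in monocytes. Of 23 nonclassical monocyte genes, 12 had a positive and 1 a negative interaction (median 2.09), with 7 that rose and 2 that fell in macrophages and 7 that rose and 13 that fell in monocytes. Without control macrophage B, 6 were positive, and 3 rose in macrophages without either control macrophage. Of 29 classical monocyte genes, 5 were positive and 2 negative (median 0.45), with 13 that rose in each cell type, and 1 was negative without control macrophage B.

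Among ligands, 13 of 30 inflammatory cytokine and chemokine genes had a called interaction, all negative (median -2.51), and 26 rose in monocytes against 13 in macrophages. Of 25 profibrotic and growth factor genes, 5 were negative and 2 positive (median -0.98), with 18 that rose in monocytes and 13 in macrophages. None was positive without control macrophage B and 1 without day 14 macrophage A. Among the 23 chemokine and adhesion receptors, 5 were positive and 4 negative, and the positive ones numbered 1 without control macrophage B and 3 without day 14 macrophage A or day 14 monocyte C. Complement showed the highest share of the immune lists, with 14 of 22 genes negative and 1 positive (median -4.13), 15 that rose in monocytes and 2 in macrophages. Serping1, C1ra and C1s1 of that list are also made by fibroblasts. Of 24 matrix proteases and inhibitors, 10 were negative and 1 positive (median -2.03), with 16 that rose in monocytes and 9 in macrophages. The single positive genes of the complement and protease lists lost the call without control macrophage B. Of 23 alternative activation genes, 6 were called, all negative (median -0.57), and Mrc1 and Retnla of these were in the opposite class.

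**Figure D5:**
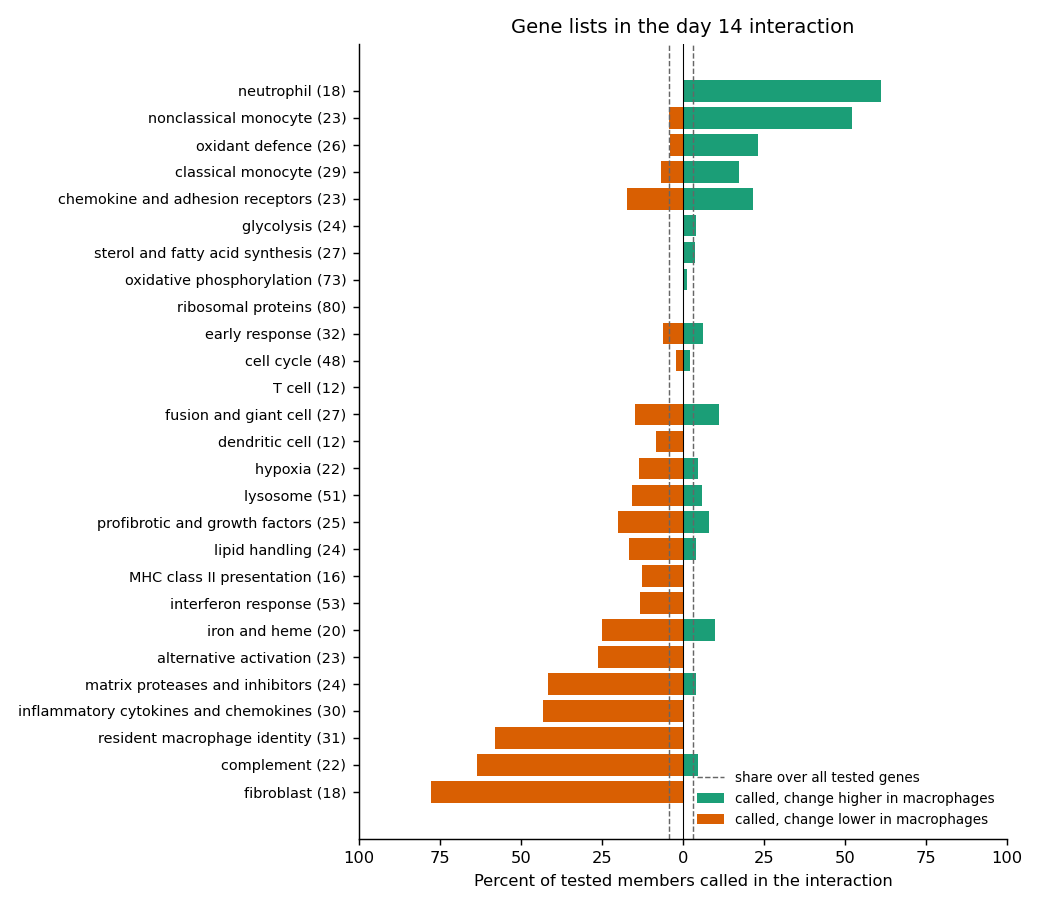
Percent of the tested members of each gene list (number in parentheses) called with a higher change in macrophages (green, to the right) or in monocytes (orange, to the left), for lists with 10 or more tested genes, with dashed lines at the shares over all tested genes. Neutrophil and nonclassical monocyte lists extend furthest to the right, and fibroblast, complement and resident macrophage lists furthest to the left.

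Interferon response genes leaned to monocytes, with 7 of 53 called, all negative (median -1.33), 19 that rose in monocytes and 1 in macrophages. The 19 became 12 without control monocyte C and 11 without day 14 monocyte C. At an unadjusted p under 0.05, 27 of the 53 interactions were negative. Negative calls numbered 10 with DESeq2 size factors, 17 by DESeq2's test and 22 with no low count filter. With 1 library left out, the negative calls ranged from 2 (without control macrophage A or day 14 monocyte C) to 12 (without day 14 monocyte B), with 4 without control macrophage B, day 14 macrophage C or control monocyte C. Oasl1, an inhibitor of interferon production, measured 37.3, 34.2 and 32.02 CPM and 353, 169.5 and 704 CPM in control and day 14 monocytes and 141 and 111 CPM and 122, 174 and 35.98 CPM in macrophages (interaction -3.76 ± 0.83, adjusted p = 0.00823). Day 14 monocyte B was the lowest and C the highest of its group. In the oxidant defence list only the called genes leaned to macrophages, with 6 of 26 positive and 1 negative. The list's median was 0.14, and 16 of its genes rose in macrophages and 15 in monocytes. The number of positive calls depended on single libraries, control macrophage A most of all. Of 22 hypoxia genes, 17 rose in macrophages and 19 in monocytes, and the interaction was called in 4 (1 positive, 3 negative). Ndrg1, a stress-response gene, was the positive one, going from 4.702 and 5.66 CPM to 197, 99.4 and 105 CPM in macrophages and from 78.2, 75.5 and 98.3 CPM to 273, 253 and 159 CPM in monocytes (interaction 3.24 ± 0.59, adjusted p = 0.00168). The lipid droplet protein Hilpda was a negative one, going from 12.5 and 15.2 CPM to 1028, 1182 and 1221 CPM in macrophages and from 3.36, 6.796 and 5.04 CPM to 2644, 1785 and 3396 CPM in monocytes (interaction -2.64 ± 0.56, adjusted p = 0.00633). Of 24 glycolysis genes 16 rose in macrophages and 17 in monocytes, against 5.51% and 19.8% of all genes. In the interaction 1 was positive and 0 negative by edgeR (5 negative at an unadjusted p under 0.05), with 2 negative without control monocyte B, 3 with DESeq2 size factors and 4 by DESeq2.

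Of 51 lysosome genes, 8 were negative and 3 positive although the median was 0.23, and 4 were negative without control macrophage B. Among 16 genes of MHC class II presentation, 2 were called, the chains H2-Eb1 and H2-Aa, which rose in monocytes only. H2-Eb1 and H2-Aa kept the call together only when control monocyte A or day 14 monocyte A was left out, and neither did without control macrophage B. H2-Eb1 went from 519, 416 and 282 CPM to 1588, 2664 and 2631 CPM in monocytes, with 2323 and 3635 CPM and 2587, 3140.2 and 2279 CPM in macrophages (interaction -2.66 ± 0.62, adjusted p = 0.0118, 0.078 without control macrophage B). Early response genes, which tissue digestion can also induce, rose in both cell types (19 of 32 in macrophages and 20 in monocytes). In the interaction 2 were positive and 2 negative, with 1 to 4 positive when 1 library was left out. At an unadjusted p under 0.05, 10 were positive and 3 negative. DESeq2's test called 9 positive and 2 negative, a fit of only the 11 libraries 6 and 2, and no low count filter 12 and 4. Ribosomal protein genes were called in the interaction in 0 of 80 cases by edgeR, with 6 negative at an unadjusted p under 0.05 and 3 negative by DESeq2. Without day 14 macrophage C 4 were negative (24 at an unadjusted p under 0.05), without control monocyte B 2, and with DESeq2 size factors 1. Of the 80, 52 rose in monocytes and 2 in macrophages, and the 52 became 33, 29 and 25 without control monocyte A, control monocyte C or day 14 monocyte C. Oxidative phosphorylation was alike, with 60 of 73 genes that rose in monocytes, and 2 in macrophages. In the interaction 1 was positive and 0 negative by edgeR (18 negative at an unadjusted p under 0.05, 4 negative by DESeq2). Negative calls numbered 18 without day 14 macrophage C, 3 without control monocyte B and 2 without day 14 monocyte B. The positive gene, Uqcrfs1, lost the call without either control macrophage, day 14 macrophage B or C, control monocyte B, or day 14 monocyte B or C. When 1 library was left out, 0 to 4 ribosomal protein genes and 0 to 5 oxidative phosphorylation genes rose in macrophages. Beside these lists, 7 of 9 tested mitochondrially encoded genes rose in monocytes and 0 in macrophages. The share of counts on mitochondrially encoded genes was 0.511%, 0.709% and 0.552% in control monocytes and 1.53%, 1.28% and 1.44% in day 14 monocytes, against 1.25% and 0.746% in control macrophages and 0.985%, 1.15% and 1.76% in day 14 macrophages. Its part in these results was not tested.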

How the data were processed

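RNA was measured in 11 libraries of 4 groups (2 control macrophage libraries, 3 in each other group), made by SMART-Seq v4 and Nextera XT, per the labels' protocols. Whole-number counts per gene were deposited by the authors. Reads were processed with bcl2fastq, STAR 2.4.1d, featureCounts (Subread 1.5.1) and GRCm38, per the submitters' processing notes. Annotation release, strand setting and counting of multi-mapped reads: not given in the sources used here. Entries with no gene symbol held 0.111% of the counts. They were filtered and tested like all others and were left off the list of named genes.

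Counts of all 23 libraries (8 groups) were fitted together in R 4.3.3 with edgeR 4.0.16 (filterByExpr, TMM, glmQLFit and glmQLFTest, no block), with limma 3.58.1. P-values were adjusted by Benjamini-Hochberg over all tested genes, with a threshold of 0.05 and a prior count of 0.125. Errors are standard errors and intervals 95%. DESeq2 1.42.0 was an alternative. A floor of 3 counts over a group bounded folds against 0 counts, and the ratio intervals and floors cover counting error only. The fit was also run on simulated data, with changes set only in day 14 macrophages and only in well-detected genes. Genes near 0 in controls were not covered by it, and no result here rests on it. P-values weigh a difference against the spread between libraries within groups, which was estimated over all 23 libraries. Named genes were the 6 with the largest absolute interaction in each response class, with a group mean of at least 10 CPM, over 3 counts in every group and no overlap of control and day 14 libraries in a called cell type. To these came up to 6 called genes with 3 or fewer counts in a group, up to 4 genes per list with the smallest adjusted p, the 6 largest shared changes each way, and marker checks. Predicted genes, receptor segments and mitochondrial genes were left out, and which of the genes so named are printed was decided with their values known. The genes and gene lists were chosen with earlier results of these data known. Promoters came from RefSeq, gene coordinates from GENCODE M21. Libraries were not paired by replicate letter. A result that names a withheld item is not reported here.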

Additional observations from a re-analysis of the deposited data

Results flagged for a closer look

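The implant's effect differed between macrophages and monocytes by a test of the difference itself, the interaction, which was positive in 529 genes and negative in 698. Among the 6 genes that the naming rule gave for each of the opposite classes, it was positive for S100a9 (6.99), Gsr (6.44), Dock5 (4.22), Spn (4.15), Treml4 (3.97) and Abi3 (3.65) on the log2 scale. It was negative for Stab1 (-9.20), Serpinf1 (-8.33), Folr2 (-7.55), Cystm1 (-6.99), Mrc1 (-4.47) and Cela1 (-4.46).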

How the results depend on the processing

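Of 112 named genes with a called interaction, 73 kept the call under every alternative that gave a value (DESeq2 gave none for Cd209f), 39 lost it under 1 or more, and 0 changed sign. Leaving out 1 library gave 185 to 594 positive and 370 to 703 negative interactions, 470 to 984 monocytes-only, 38 to 109 macrophages-only, 13 to 40 opposite, 37 to 126 same-direction, 359 to 650 converging and 61 to 279 diverging genes. Where 1 control macrophage was left, it was assumed to vary like the other groups.

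With no low count filter there were 1345 positive interactions, and 1678 monocytes-only, 194 macrophages-only, 154 opposite, 219 same-direction and 734 diverging genes. DESeq2's test gave 960 positive and 1253 negative interactions, and 1579, 227, 112, 216 and 677 genes in those classes. A fit of only the 11 libraries gave 62 opposite and 383 diverging genes. An adjusted p under 0.01 gave 151 positive and 294 negative interactions, and 340 monocytes-only, 40 macrophages-only, 10 opposite, 43 same-direction, 316 converging and 34 diverging genes. Without the 3 libraries whose deviation fell with exon length, an alternative chosen after seeing the data, these were 275, 341, 509, 37, 11, 43, 313 and 135. The causes were not tested.

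Same-letter libraries had correlations of deviations of -0.106 to 0.237 over 15 pairs, 3 of them over 0.1. What the letters mark was not given. The replicate block gave 395 positive and 547 negative interactions and 26 opposite genes, and 923 of the 1227 main calls stayed called. Low control counts limit the precision of the largest changes, with 233 of the 1227 genes at 3 or fewer counts in a group.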
